A study of Mus musculus with 6 samples.

Results

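The osteoclast effector and fusion genes are a set of 10 genes that carry out bone resorption and the joining of precursor cells: Acp5, Ctsk, Calcr, Itgav, Itgb3, Dcstamp, Ocstamp, Atp6v0d2, Car2 and Snx10. They were chosen by gene symbol, and 9 of the 10 have a row among the 17382 genes of the deposited table. Calcr, the calcitonin receptor, has no row and is not analysed here. Osteoclasts are the multinucleated cells that resorb bone, and they arise from monocyte and macrophage precursors. M-CSF keeps these precursors alive, and RANKL, acting on RANK and the transcription factor NFATc1, turns on the genes for fusion, attachment through the alpha v beta 3 integrin, acid secretion and collagen breakdown. M-CSF without RANKL does not yield mature osteoclasts, and no RANKL is named in the protocol of these cultures.

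The libraries labelled KO came from C57BL/6 mice aged 2 months that were PD-L1 flox/flox and carried lysozyme-Cre, and the libraries labelled WT from mice of the same strain and age with the floxed alleles and no Cre, with 3 libraries per group. PD-L1 is the ligand of the inhibitory receptor PD-1, and lysozyme-Cre is active in myeloid cells, so deletion is limited to cells that express lysozyme. Bone marrow cells of both groups were grown for 3 days with 40 ng/mL M-CSF in medium with 10% serum, and total RNA was sequenced. The design text calls the libraries biological triplicates, and the sources used here give no batch.

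Cd274, which encodes PD-L1, was not lower in the libraries labelled KO, with 19.3, 19.2 and 29.2 TPM there and 17.9, 15.5 and 23.7 TPM in those labelled WT. Which exons are floxed is not given in the sources, and reads over the whole gene cannot tell whether these were deleted, so each direction reported here follows the labels. Library depth ranged between 52.4 and 77.3 (in 1000000 reads). The first principal component, with 44.3% of the variance, set KO3, WT1 and WT2 (31.8, 19.8 and 19.1) apart from KO1, KO2 and WT3 (-23.1, -17.4 and -30.1), so KO3 and WT3 each lay apart from the other libraries of their label. Over all 13722 genes tested, 0 passed the limma test at an adjusted p under 0.05, and 299 genes, or 2.18%, had an unadjusted p under 0.05. With limma-voom on recovered reads 0 genes passed as well, and 310 had an unadjusted p under 0.05. The labelled cell type was checked against 8 macrophage markers, of which all 8 had a row, and Csf1r, the M-CSF receptor, had 815 to 1448 TPM in the libraries labelled KO and 1042 to 1525 TPM in those labelled WT. The summed level of the markers was 17716 to 24972 TPM in the libraries labelled KO and 32088 to 46224 TPM in those labelled WT, with no overlap. Most of it was the lysozyme gene Lyz2, the gene whose promoter drives lysozyme-Cre. Lyz2 was the 1 marker of the 8 whose groups did not overlap. The log2 differences of the 8 were 5 positive and 3 negative, with a median of 0.01. Lyz2 itself had 19101, 19354 and 13232 TPM in KO1, KO2 and KO3, and 26707, 27493 and 40358 TPM in WT1, WT2 and WT3 (limma adjusted p = 1.0). The 9 neutrophil markers, all tested, summed to 7007 to 8078 TPM in the libraries labelled KO and 5800 to 8402 TPM in those labelled WT. None of the 9 passed, with 6 positive and 3 negative log2 differences, and their part in the members' values was not tested. Of 8 T and NK cell markers 5 were tested, and all 5 had each library labelled KO above each labelled WT. Over all genes tested, 5.12% had groups that did not overlap, in either direction. The 5 rest on few reads, at most 61 in a library (Cd8a in KO2). The 7 markers with a row summed to 1.92 to 3.45 TPM in the libraries labelled KO and 0.295 to 0.625 TPM in those labelled WT. All 5 had an unadjusted p under 0.05 (limma). None of the 5 passed, and their part in the members' values was not tested.

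All 9 listed members are protein-coding genes and are read here on mm10. Snx10 lies on chromosome 6 from 51523903 to 51590670 (plus strand, 7 exons) and Itgav on chromosome 2 from 83724397 to 83806917 (plus, 30 exons). Atp6v0d2 lies on chromosome 4 from 19876838 to 19922566 (minus, 8 exons), Ctsk on chromosome 3 from 95499210 to 95509387 (plus, 8 exons) and Itgb3 on chromosome 11 from 104608000 to 104670471 (plus, 15 exons). Acp5 lies on chromosome 9 from 22126727 to 22135746 (minus, 6 exons) and Car2 on chromosome 3 from 14886426 to 14900770 (plus, 7 exons). Dcstamp lies on chromosome 15 from 39745930 to 39760938 (plus, 4 exons) and Ocstamp on chromosome 2 from 165395450 to 165400394 (minus, 3 exons). Exon numbers are those of the GENCODE M21 transcript with the most exons. Among windows of 50 bases of the members' transcripts, none of Acp5, Ctsk, Itgav, Dcstamp, Atp6v0d2 or Car2 occurs in a transcript of another gene. The share was 0.0688% for Itgb3, 0.0107% for Snx10 and 2.80% for Ocstamp, so reads in that part of Ocstamp could come from other genes. The microRNA gene Mir680-2 lies within Acp5 on the same strand, and reads there could be counted to either.

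RefSeq promoters (GRCm38.p6, 250 bases before to 50 after the start) were matched for 5 of the 10 members, and those whose start is the 5′ end of the gene in the deposited table are shown because they belong to members at different levels: Snx10 and Itgav as the most abundant members, Ctsk as the steadiest, and Acp5 as the lowest of the 4. Capitals mark GGAAA (the core bound by NFAT factors) and GAGGAA (bound by PU.1), on either strand. They run from 5′ to 3′ on the strand of the gene, at chr6:51523653-51523952 for Snx10, chr2:83724147-83724446 for Itgav, chr3:95498960-95499259 for Ctsk and chr9:22135697-22135996 for Acp5.
Snx10: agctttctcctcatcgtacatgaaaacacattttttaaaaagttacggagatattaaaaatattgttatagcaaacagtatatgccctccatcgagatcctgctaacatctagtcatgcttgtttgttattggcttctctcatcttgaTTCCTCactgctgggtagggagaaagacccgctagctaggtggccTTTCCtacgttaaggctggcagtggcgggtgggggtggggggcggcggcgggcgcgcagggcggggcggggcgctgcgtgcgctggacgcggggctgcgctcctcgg
Itgav: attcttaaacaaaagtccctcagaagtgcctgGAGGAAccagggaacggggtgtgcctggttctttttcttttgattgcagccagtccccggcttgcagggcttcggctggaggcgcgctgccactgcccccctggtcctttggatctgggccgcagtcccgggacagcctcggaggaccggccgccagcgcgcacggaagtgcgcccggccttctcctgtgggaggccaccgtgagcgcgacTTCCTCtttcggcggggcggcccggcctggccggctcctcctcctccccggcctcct
Ctsk: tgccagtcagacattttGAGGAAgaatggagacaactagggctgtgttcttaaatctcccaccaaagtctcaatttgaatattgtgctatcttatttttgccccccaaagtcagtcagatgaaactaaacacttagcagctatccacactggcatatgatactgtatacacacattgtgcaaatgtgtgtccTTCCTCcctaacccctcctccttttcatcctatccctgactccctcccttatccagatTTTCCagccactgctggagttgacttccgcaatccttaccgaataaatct
Acp5: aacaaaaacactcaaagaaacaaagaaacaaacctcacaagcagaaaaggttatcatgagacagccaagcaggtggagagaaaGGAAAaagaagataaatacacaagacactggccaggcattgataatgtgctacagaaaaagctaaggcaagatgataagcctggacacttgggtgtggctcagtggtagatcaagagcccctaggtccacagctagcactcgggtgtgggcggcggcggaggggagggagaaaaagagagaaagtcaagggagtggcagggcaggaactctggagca

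GGAAA was found once each in the Snx10, Ctsk and Acp5 windows and not in that of Itgav, and 61.3% of all 32851 promoters of the same length hold it. GAGGAA was found once for Snx10 and at 2 places each for Ctsk and Itgav, and 28.3% of all promoters hold it. None of these 4 windows held TGANTCA (AP-1, in 7.81% of all promoters), TCACNTG (the M-box of MITF and TFE factors, in 16.6%) or TATAAA (in 13.6%). The motifs do not overlap one another in these windows. The Itgav window was rich in G and C at 67.3%, against 54.3% for Snx10, 48.7% for Acp5, 43.7% for Ctsk and a median of 52.7% over all promoters. Other start sites of Snx10 and Acp5 in the RefSeq table, not shown, do hold such letters, TGANTCA in 1 window of Snx10 and TCACNTG in 1 window of Acp5. The RefSeq gene of Itgav begins further upstream, at 83722303 on chromosome 2, and no window at that start was searched. A match is a run of letters and not a site in use.

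The members ranged widely in level on the TPM scale, which is per length and so allows genes to be compared. Over all 6 libraries Snx10 averaged 115 ± 10 TPM (SD, n = 6), Itgav 41.3 ± 6.9, Atp6v0d2 30.5 ± 7.0, Ctsk 24.5 ± 1.5, Itgb3 18.8 ± 3.3, Acp5 10.3 ± 2.0, Car2 2.04 ± 0.54, Dcstamp 0.448 ± 0.173 and Ocstamp 0.257 ± 0.059 TPM. Snx10 lay above Itgav in 6 of 6 libraries with no overlap of their ranges, as did Itgb3 above Acp5, Acp5 above Car2 and Car2 above Dcstamp. The ranges over the 6 libraries overlapped for the other neighbours in this order. Within a library, Itgav lay above Atp6v0d2 in 4 of 6, and Atp6v0d2 above Ctsk, Ctsk above Itgb3 and Dcstamp above Ocstamp in 5 of 6 each. In a ranking of the 17382 genes of the table within each library, Snx10 lay between the 88.5th and 91.4th percentile, Acp5 between the 47.3rd and 54.3rd, and both fusion genes between the 23.7th and 31.1st.

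**Figure D1:**
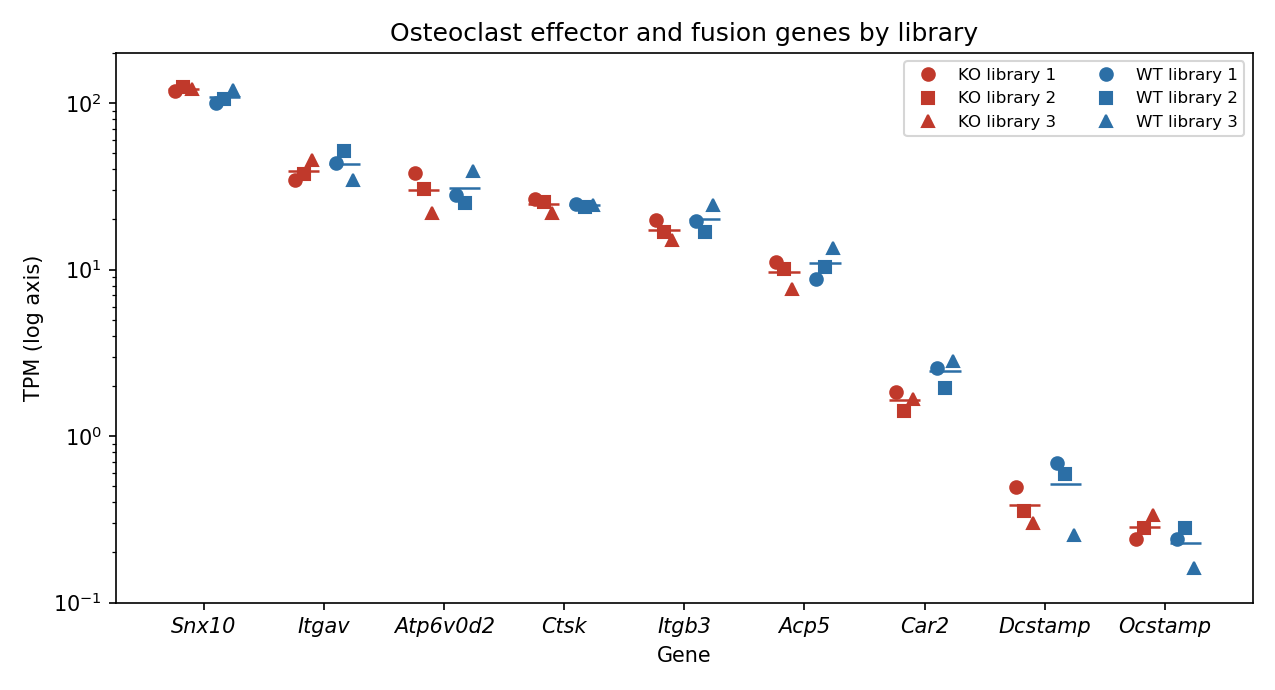
Level of each listed member in TPM (log axis) in each library, with KO libraries in red left of WT libraries in blue, a marker shape per library number and a line at the mean of 3 libraries. Snx10 lies near 100 TPM in every library, the fusion genes Dcstamp and Ocstamp lie below 1 TPM, and the KO and WT libraries do not overlap for Car2.

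Ctsk and Acp5 are the enzymes most used to mark osteoclasts. Ctsk encodes cathepsin K, the cysteine protease that cleaves collagen in the resorption pit. It had 26.4, 25.5 and 22.0 TPM in KO1, KO2 and KO3, and 24.8, 23.8 and 24.4 TPM in WT1, WT2 and WT3. The groups overlapped, and the KO libraries held both the highest and the lowest value. Ctsk was the member with the smallest spread, with an SD of 0.09 on the log2 scale over the 6 libraries, against a median of 0.18 over all genes tested. The log2 difference, KO minus WT, was 0.01 ± 0.10 (SE; 95% interval -0.22 to 0.25), which spans a ratio of 0.858 to 1.19 (limma adjusted p = 1.0).

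Acp5 encodes tartrate-resistant acid phosphatase, the enzyme of the TRAP stain. It had 11.1, 10.1 and 7.70 TPM in KO1, KO2 and KO3, and 8.83, 10.4 and 13.4 TPM in WT1, WT2 and WT3. WT3 was highest and KO3 lowest, and the groups overlapped. The difference on the log2 scale was -0.17 ± 0.20 (95% interval -0.66 to 0.32; limma adjusted p = 1.0), and it was -0.011 without WT3, -0.019 without KO3 and -0.31 without WT1. The 2 genes of most like pattern among 10643 were Zbtb4 (Pearson r = 0.996 over 6 libraries) and Calhm2 (r = 0.989); for Ctsk they were Fam110b (r = 0.989) and Cep120 (r = 0.986). All values of r here describe 6 points that share library and depth.

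Other proteases of the lysosome stood far above cathepsin K. Within a library, Ctsb (cathepsin B) was at 298 to 352 times the TPM of Ctsk, and Ctss (cathepsin S) at 100 to 163 times. Ctsd, the aspartic protease cathepsin D, was the most abundant gene of the protease and phosphatase list at 13877 ± 406 TPM in the libraries labelled KO and 13804 ± 1060 TPM in those labelled WT (SD, n = 3 each). The lysosomal acid phosphatase Acp2 had 115 ± 21 and 115 ± 13 TPM, above Acp5 in each library. Mmp14, a membrane-bound matrix metalloproteinase, had 21.4, 18.1 and 7.65 TPM in KO1, KO2 and KO3, and 7.24, 7.86 and 18.8 TPM in WT1, WT2 and WT3, so KO3 lay with WT1 and WT2. Of the 7 genes of this list, 0 passed the limma test, 4 log2 differences were positive and 3 negative, and the median was 0.01.

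Resorption needs acid, which is made by carbonic anhydrase and pumped out by a V-ATPase at the ruffled border. Atp6v0d2 encodes the d2 subunit of the membrane part of this pump, the form of the d subunit that rises in osteoclasts. It had 38.1, 30.6 and 21.9 TPM in KO1, KO2 and KO3, and 28.1, 25.1 and 39.3 TPM in WT1, WT2 and WT3. WT3 and KO1 were highest and KO3 was lowest, a range of 1.80 times, and the groups overlapped. The log2 difference was -0.04 ± 0.25 (95% interval -0.63 to 0.55; limma adjusted p = 1.0), and its sign turned to 0.17 without KO3 and to 0.15 without WT3.

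The broadly expressed paralog Atp6v0d1 had 406 ± 24 TPM in the libraries labelled KO and 387 ± 18 TPM in those labelled WT. Atp6v0d2 made up 8.37%, 6.75% and 5.47% of the summed TPM of both d subunits in KO1, KO2 and KO3, and 6.81%, 6.36% and 8.81% in WT1, WT2 and WT3. KO3 had the lowest and WT3 the highest share, and the groups overlapped. The library order of Atp6v0d2, from WT3 over KO1, KO2, WT1 and WT2 to KO3, was also that of Csf1r, the M-CSF receptor, and of Nfatc1, and it was shared by 378 of the 13722 genes tested, or 2.75%. Nfatc1 had 27.2, 25.6 and 21.1 TPM in KO1, KO2 and KO3, and 23.2, 21.1 and 27.3 TPM in WT1, WT2 and WT3. The genes of most like pattern to Atp6v0d2 were Zdhhc14 and Usp30 (r = 0.997 each).

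Car2, which encodes carbonic anhydrase 2, the enzyme that supplies protons to the pump, was the 1 member whose groups did not overlap. It had 1.83, 1.41 and 1.68 TPM in KO1, KO2 and KO3, from 97, 69 and 73 reads, and 2.56, 1.96 and 2.83 TPM in WT1, WT2 and WT3, from 97, 109 and 145 reads. Each library labelled KO lay below each labelled WT, with a ratio of the means of 0.669. The log2 difference was -0.54 ± 0.19 (95% interval -1.01 to -0.08) with an unadjusted p of 0.0274, and it did not pass over all genes (limma adjusted p = 1.0). Over all genes tested, 5.12% had groups that did not overlap, and 2.27% had each library labelled KO below each labelled WT, beside which 1 of 9 members is not a result about the set. Leaving out 1 library at a time gave differences of -0.69 to -0.44.

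Red cell precursors also express Car2, so their markers are given beside it. Of 12 erythroid markers 11 had a row and 10 were tested, of which 9 had a negative log2 difference, with a median of -0.31, and 0 passed. Their summed level was 41.9 to 76.2 TPM in the libraries labelled KO and 65.7 to 112 TPM in those labelled WT, and none of the 11 was at 0 in all libraries. Of the 10 tested, Hbb-bt, Alas2 and Klf1 had each library labelled KO below each labelled WT, and 0 had the reverse. That order was found in 2.27% of all genes tested. Klf1 rests on at most 9 reads in a library, and 0 of the 10 had an unadjusted p under 0.05 (limma). Car1, the carbonic anhydrase of red cells, has no row. Of 11 megakaryocyte markers 10 had a negative log2 difference, with a median of -0.32. The part of these cells in the values of Car2 was not tested. In these bulk libraries fewer cells of a type and less RNA per cell cannot be told apart. The genes of most like pattern to Car2 were Cd226 (r = 0.978) and Serpine2 (r = 0.972).

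Snx10, a sorting nexin of endosomes whose loss causes osteopetrosis in mouse and human, was the most abundant member. It had 118, 125 and 122 TPM in KO1, KO2 and KO3, and 99.6, 107 and 120.0 TPM in WT1, WT2 and WT3. WT3 lay among the libraries labelled KO, while WT1 and WT2 were the lowest. For Snx10 the log2 difference was 0.17 ± 0.09 (95% interval -0.05 to 0.38), a ratio of 0.967 to 1.30, and it did not pass (limma adjusted p = 1.0). Without WT3 it was 0.24, with an adjusted p of 0.655. The genes of most like pattern were Cysltr2 (r = 0.985), a leukotriene receptor, and Aim2 (r = 0.984), a sensor of DNA in the cytosol.

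Of the 15 genes of the acid secretion list 13 had a row and 12 were tested, and 0 passed, with 7 positive and 5 negative log2 differences and a median of 0.01. The most abundant were the V-ATPase subunits Atp6v1b2, with 638 ± 3 TPM in the libraries labelled KO and 672 ± 34 TPM in those labelled WT, and Atp6v1a, with 674 ± 16.5 and 631 ± 44 TPM. Ostm1, the partner of the chloride transporter ClC-7, had 115, 116 and 116 TPM in KO1, KO2 and KO3, and 99.8, 108 and 108 TPM in WT1, WT2 and WT3, with groups that did not overlap and a log2 difference of 0.14 ± 0.07 (limma adjusted p = 1.0). Car4, a membrane-bound carbonic anhydrase, had no row.

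Itgav and Itgb3 encode the alpha v and beta 3 chains of the vitronectin receptor, with which osteoclasts seal themselves to bone. Itgav had 34.5, 37.3 and 45.7 TPM in KO1, KO2 and KO3, and 43.8, 51.6 and 34.6 TPM in WT1, WT2 and WT3. KO3, WT1 and WT2 were high, and KO1, KO2 and WT3 were low. Between the labels the log2 difference was -0.14 ± 0.17 (95% interval -0.55 to 0.28; limma adjusted p = 1.0), and it was -0.0030 without WT2 and -0.29 without WT3. The genes of most like pattern were Rpl4, a protein of the large ribosomal subunit (r = 0.997), and Nop16, a nucleolar protein of ribosome assembly (r = 0.995).

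Itgb3 had 19.8, 16.9 and 15.0 TPM in KO1, KO2 and KO3, and 19.5, 16.9 and 24.4 TPM in WT1, WT2 and WT3. WT3 was highest and KO3 lowest, whereas Itgav was second highest in KO3 and second lowest in WT3. The log2 difference was -0.23 ± 0.17 (95% interval -0.63 to 0.18; limma adjusted p = 1.0), and it was -0.086 without WT3 and -0.35 without WT2. The ratio of Itgav to Itgb3 was 1.74, 2.21 and 3.05 in KO1, KO2 and KO3, and 2.25, 3.04 and 1.42 in WT1, WT2 and WT3. It was highest in KO3 and lowest in WT3, and averaged 2.33 ± 0.66 in the libraries labelled KO and 2.24 ± 0.81 in those labelled WT (SD, n = 3 each). The mRNAs of the 2 chains were therefore not in a fixed ratio among the libraries of either label.

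**Figure D2:**
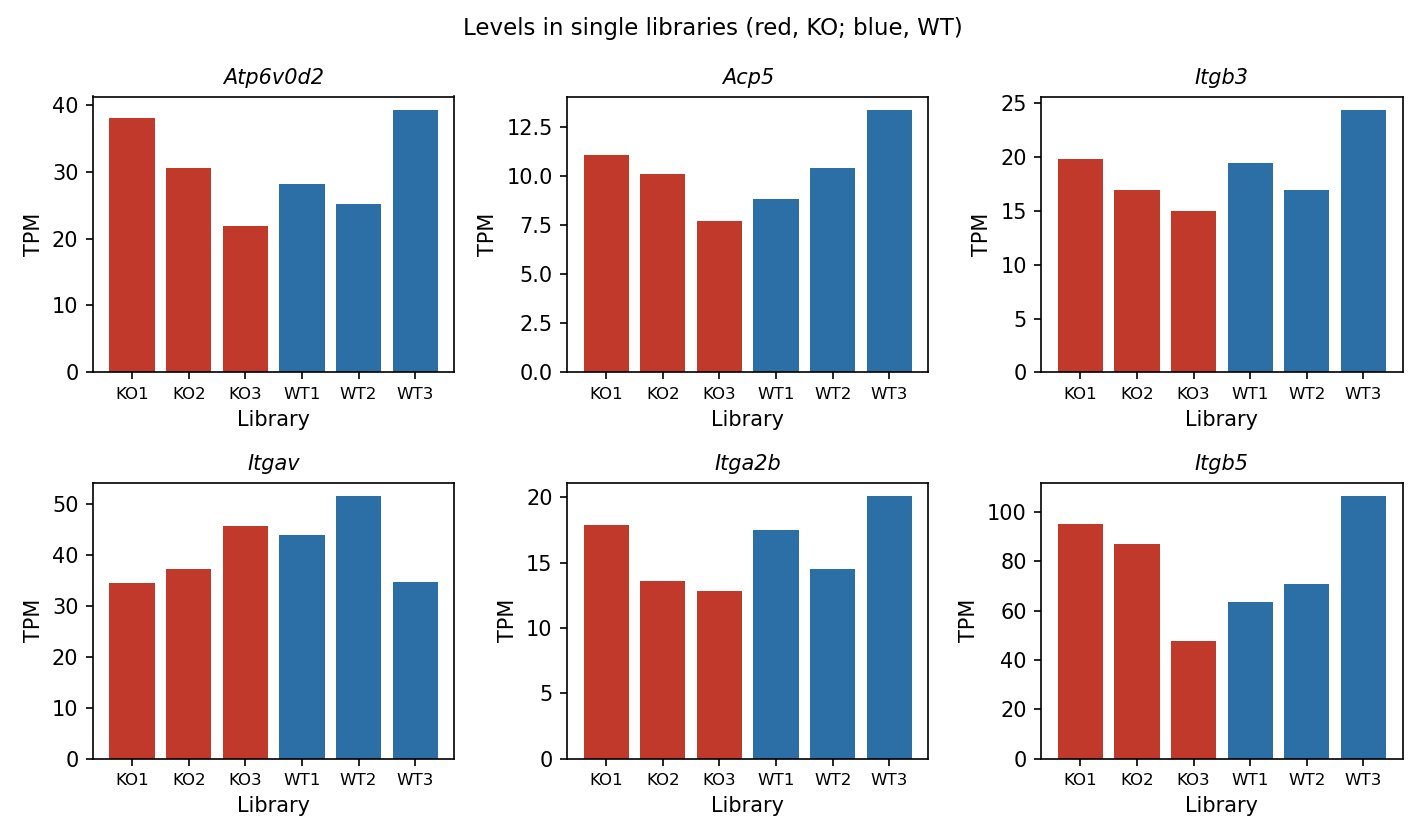
TPM of 4 members and of the integrin genes Itga2b and Itgb5 in each library, with KO libraries in red and WT libraries in blue. Itgav is high in KO3, WT1 and WT2 at 43.8 to 51.6 TPM, while Atp6v0d2, Acp5, Itgb3, Itga2b and Itgb5 are highest in WT3 and lowest in KO3.

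Both chains also pair with others. Of the other beta chains that can join alpha v, Itgb1 was at 20.2 to 38.9 times and Itgb5 at 3.20 to 5.16 times the TPM of Itgb3 within a library, while Itgb8 had at most 0.0677 TPM and Itgb6 has no row. Itgb5 had 95.3, 87.2 and 47.9 TPM in KO1, KO2 and KO3, and 63.5, 71.0 and 107 TPM in WT1, WT2 and WT3, highest in WT3 and lowest in KO3 as Itgb3 was. Itga2b, the platelet chain that pairs with beta 3 and was singled out after its values were seen, had 17.9, 13.6 and 12.8 TPM in KO1, KO2 and KO3, and 17.5, 14.5 and 20.1 TPM in WT1, WT2 and WT3. Its 6 libraries stood in the same order as those of Itgb3, an order shared by 24 of 13722 genes tested, or 0.175%. The orders of the other listed members were shared by 0.0364% (Car2) to 2.75% (Atp6v0d2) of these genes. A match of a gene singled out in this way is not a result about Itgb3. The genes of most like pattern to Itgb3 were Rab27b (r = 0.990), a GTPase of secretory granules in platelets and other cells, and Sdpr (r = 0.987).

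Megakaryocytes and platelets also express Itgb3, and all 11 of their markers had a row and were tested. Their summed level was 808 to 1170 TPM in the libraries labelled KO and 993 to 1097 TPM in those labelled WT, most of it the platelet factor gene Pf4, and none was at 0. Of the 11, 0 passed, and 10 had a negative log2 difference, with a median of -0.32. The 1 positive difference was that of Pf4, at 0.01. The 2 markers with the smallest p had groups that did not overlap, with each library labelled KO below each labelled WT. Among the 13722 genes tested, 5.12% had groups that did not overlap, 2.27% had them in this direction, and 2.18% had an unadjusted p under 0.05. Clec1b, a platelet receptor of podoplanin, had 7.77, 6.20 and 5.598 TPM in KO1, KO2 and KO3, and 8.27, 8.35 and 10.3 TPM in WT1, WT2 and WT3, a log2 difference of -0.46 ± 0.16 with an unadjusted p of 0.0283. Gp1ba, a chain of the platelet von Willebrand factor receptor, had 5.09, 4.91 and 4.41 TPM in KO1, KO2 and KO3, and 7.67, 5.12 and 6.80 TPM in WT1, WT2 and WT3, a log2 difference of -0.42 ± 0.17 with an unadjusted p of 0.0494. The part of these cells in the values of Itgb3 was not tested.

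Of the 13 genes of the integrin partner and ligand list 12 had a row and 10 were tested, and 0 passed, with 3 positive and 7 negative log2 differences and a median of -0.06. Spp1, which encodes the alpha v beta 3 ligand osteopontin, was the most abundant, with 2112, 1953 and 5056 TPM in KO1, KO2 and KO3, and 3096, 2379 and 1786 TPM in WT1, WT2 and WT3. KO3 was the highest and WT3 the lowest of the 6. Fn1, which encodes the ligand fibronectin, had 2.04, 1.84 and 2.07 TPM in KO1, KO2 and KO3, and 2.40, 3.797 and 2.63 TPM in WT1, WT2 and WT3. Its groups did not overlap, and the log2 difference of -0.52 ± 0.20 did not pass (limma adjusted p = 1.0). Src, the kinase needed for the ruffled border, had 1.69 ± 0.28 TPM in the libraries labelled KO and 2.17 ± 0.42 TPM in those labelled WT.

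**Figure D3:**
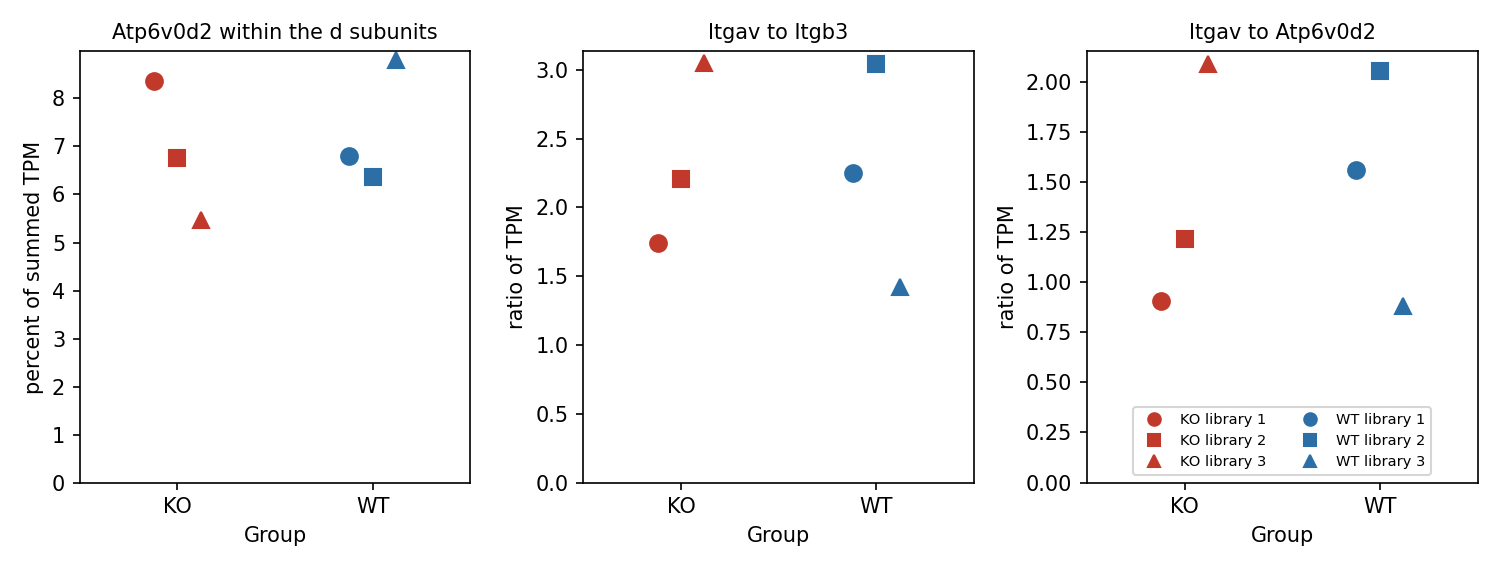
Within-library values for the KO libraries, left, and the WT libraries, right, with a marker shape per library number: the share of Atp6v0d2 in the summed TPM of both d subunits (percent), the ratio of Itgav to Itgb3 and the ratio of Itgav to Atp6v0d2 (TPM over TPM). In each panel the KO and WT libraries overlap, and KO3 and WT3 lie at opposite ends.

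Dcstamp and Ocstamp encode the membrane proteins needed for precursors to fuse, and both rested on few reads in each library. Dcstamp had 30, 20 and 15 reads in KO1, KO2 and KO3, and 30, 38 and 15 reads in WT1, WT2 and WT3. These are 0.493, 0.355 and 0.301 TPM in the libraries labelled KO and 0.690, 0.595 and 0.255 TPM in those labelled WT. WT1 and WT2 were highest and WT3 was lowest, the one member apart from Ocstamp for which WT3 was at the bottom. The 38 reads of WT2 have an exact Poisson 95% interval of 26.9 to 52.2 and the 15 reads of WT3 one of 8.40 to 24.7, which covers counting error only. For Dcstamp the log2 difference was -0.28 ± 0.35 (95% interval -1.12 to 0.55; limma adjusted p = 1.0). Without WT3 it was -0.64, and without WT1 -0.060.

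Ocstamp had 14, 15 and 16 reads in KO1, KO2 and KO3, and 10, 17 and 9 reads in WT1, WT2 and WT3. These are 0.242, 0.280 and 0.337 TPM in the libraries labelled KO and 0.241, 0.279 and 0.161 TPM in those labelled WT. The groups overlapped, and the log2 difference was 0.25 ± 0.23 (95% interval -0.30 to 0.80; limma adjusted p = 1.0), and it was 0.094 without WT3 and 0.068 with a pseudocount of 1. The reads of both genes are few, and a difference within these intervals could not be told from none with 3 libraries per label. The scale of log2(TPM + 0.1) also understates changes of genes this low.

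Other genes of cell fusion lay above Dcstamp and Ocstamp in level. In the fusion list, means over the 6 libraries ran from 11.5 TPM for Myo10 to 2402 TPM for Tyrobp. All 10 of the fusion list were tested and 0 passed, with 2 positive and 8 negative log2 differences and a median of -0.03. Tyrobp, the ITAM adaptor known as DAP12, had 2404 ± 426 TPM in the libraries labelled KO and 2399 ± 327 TPM in those labelled WT, and Sirpa, the receptor of CD47, had 1175 ± 145 and 1197 ± 97 TPM. Cd47 itself had 187 ± 13 and 179 ± 14 TPM. Myo10, a myosin of filopodia, had 11.2, 9.42 and 10.2 TPM in KO1, KO2 and KO3, and 11.3, 14.7 and 12.03 TPM in WT1, WT2 and WT3, with groups that did not overlap and a log2 difference of -0.30 ± 0.14 (limma adjusted p = 1.0). 

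For Calcr only its relatives can be described. Calcrl, the calcitonin receptor-like receptor, had 29.0, 31.6 and 60.7 TPM in KO1, KO2 and KO3, and 47.6, 48.3 and 24.97 TPM in WT1, WT2 and WT3. Ramp1, whose protein joins either receptor, had 6.96, 5.70 and 2.29 TPM in KO1, KO2 and KO3, and 4.09, 2.46 and 7.78 TPM in WT1, WT2 and WT3. The libraries high for Calcrl were low for Ramp1, and neither gene separated the labels. Ramp2 had at most 0.236 TPM. Of the 3 genes tested of 4 with a row, 0 passed, and the median log2 difference was -0.02.

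Of the 9 members 0 passed the limma test, 6 log2 differences were negative and 3 positive, and the median was -0.14, against 0.00 over all genes tested. For 1 member the unadjusted p was under 0.05, against 2.18% of all genes tested. The authors' deposited table calls 46 of its 17382 genes at an adjusted p under 0.05, or 0.265%, and 0 of the 9 members. In the authors' deposited table the member with the smallest p is Car2, with a log2 fold change of -0.58 and an unadjusted p of 0.0650. On the log2 scale the 95% interval of the difference was narrowest for Snx10, at -0.05 to 0.38, and widest for Dcstamp, at -1.12 to 0.55. All p-values here rest on the spread among 3 libraries per label, and a difference that did not pass is not shown to be absent.

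**Figure D4:**
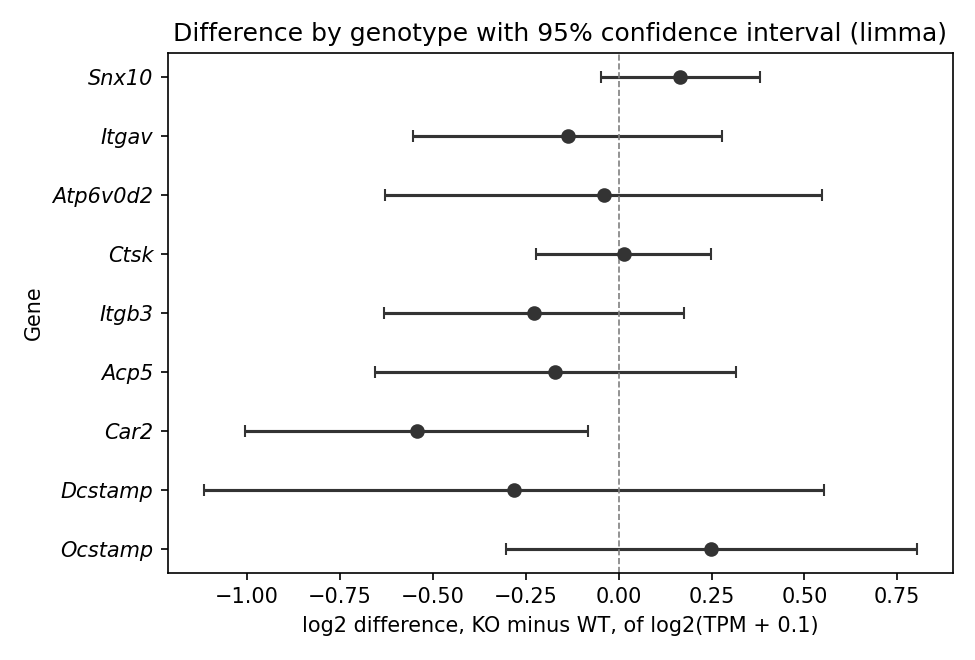
Log2 difference, KO minus WT, of log2(TPM + 0.1) for each listed member (points) with its 95% confidence interval from limma (bars), members ordered by level. The interval of Car2 lies below 0 at -1.01 to -0.08 with no adjustment for the number of genes, and those of the other 8 members include 0.

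The receptor of the pathway was measured in every library, and its ligand had 1 read in 1 library. Tnfrsf11a, which encodes RANK, had 39.5, 42.0 and 44.7 TPM in KO1, KO2 and KO3, and 51.2, 53.7 and 37.1 TPM in WT1, WT2 and WT3. Tnfsf11, which encodes RANKL, had a value above 0 in KO2 alone, at 0.0163 TPM from 1 read. Of the 20 genes of the RANK and transcription list 18 were tested and 0 passed, with 11 positive and 7 negative log2 differences and a median of 0.02. Oscar and Siglec15, receptors that rise in osteoclasts, had at most 0.0791 and 0.0656 TPM and were not tested. Jun, a part of AP-1, had 96.7 ± 29.5 TPM in the libraries labelled KO and 78.6 ± 7.0 TPM in those labelled WT, and Fcer1g, the second ITAM adaptor, had 1833 ± 145 and 1899 ± 252 TPM.

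Among genes that restrain osteoclast formation 0 of 8 tested passed, with 4 positive and 4 negative log2 differences and a median of -0.03. Bach2, a transcriptional repressor best known from lymphocytes, had 2.21, 2.71 and 2.09 TPM in KO1, KO2 and KO3, and 3.15, 4.22 and 3.44 TPM in WT1, WT2 and WT3. Its groups did not overlap, and the log2 difference was -0.60 ± 0.18 with an unadjusted p of 0.0119 (limma adjusted p = 1.0). Beside it, all 8 tested B lineage markers had a negative log2 difference, with a median of -0.57 and a summed level of 51.5 to 85.6 TPM in the libraries labelled KO and 82.8 to 106 TPM in those labelled WT; their part in the value of Bach2 was not tested. Id1 had 4.92, 2.69 and 3.62 TPM in KO1, KO2 and KO3, and 7.48, 30.5 and 2.88 TPM in WT1, WT2 and WT3, with WT2 far above the rest. The abundant members Irf8 and Id2 had 154 ± 12 and 135 ± 22 TPM in the libraries labelled KO and 140 ± 15 and 151 ± 33 TPM in those labelled WT. Over all 7 lists 68 genes were tested, 32 with a positive and 36 with a negative log2 difference, a median of -0.0043 and 0 that passed; 4 of the 68 had groups that did not overlap, 5.88% beside 5.12% of all genes tested.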

How the data were processed

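Libraries were made from total RNA with a strand-specific kit, per the labels' protocols, and the build is mm10 per the submitters' processing notes. These also name the tools TopHat2 2.0.12, featureCounts with Subread, edgeR, Picard 1.127 and FastQC 0.11.2 with no roles, and how reads were counted is not stated there. The authors deposited TPM values per gene and library (each column sums to 1000000), and, per the file headers, their log2 fold change, p-value, adjusted p-value and likelihood ratio score, where a positive fold change means higher in the CKO columns, from the values. The deposited unit is TPM, so genotype was tested with limma 3.58.1 (R 4.3.3; moderated, mean-variance trend, two-sided, Benjamini-Hochberg over all genes tested) on log2(TPM + 0.1). The 13722 genes tested reached 0.1 TPM in 3 or more libraries; all 9 listed members passed this filter in every library. Differences are KO minus WT. An exact permutation test of 3 against 3 was not used. Whole reads were recovered from the ratios of TPM between libraries for 100% of 94034 values above 0 (within 0.001 of a read), with the common factor of 294 genes set from the authors' mean log2 CPM; limma-voom was run on them as an alternative. The fit and the recovery were also run on simulated data. The simulated reads for the fit had the same dispersion for every gene and no component like the first principal component here. How the fit handles such a component was therefore not tested. Same-numbered libraries did not deviate together (r = -0.24, -0.15 and -0.53), so the main fit did not pair them. With 3 libraries per label, and KO3 and WT3 at opposite ends, these r cannot settle whether the number pairs them.

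Members, gene lists and the rule for named genes (per list, the 2 with the smallest p, the 2 most abundant and direct relatives of members; per member with a mean of at least 1 TPM, the 2 genes of most like pattern) were chosen with earlier results of these data known. Of 78 pathway genes 75 had a row under their symbol or a RefSeq synonym. Alternatives were other pseudocounts (1 and 0.01), other filters (1 TPM in 3 libraries, none), limma-voom, quantile normalization, median centring, the replicate block and each library left out.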

Additional observations from a re-analysis of the deposited data

How the results depend on the processing

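No member passed an adjusted p of 0.05 under any of the alternatives run, and 125 of 133 alternative values of the members kept their direction. Those that turned were Ctsk without KO replicate 1, KO replicate 2 or WT replicate 2 (-0.039, -0.014 and -0.0030 against 0.013, with a range of -0.039 to 0.093 over the left-out libraries) and Atp6v0d2 without KO replicate 3 or WT replicate 3 (0.17 and 0.15 against -0.04, range -0.23 to 0.17). Without both KO3 and WT3, chosen after their place was seen, Acp5, Itgb3 and Atp6v0d2 also turned (0.14, 0.0098 and 0.36), Itgav moved to -0.41 (limma adjusted p = 0.0672, the lowest of any member and alternative) and Ocstamp to 0.0014, and 1400 genes passed limma in place of 0; the labels then coincide with the sides of the first principal component and cannot be told apart from them. With the replicate block 0 genes passed and 232 had an unadjusted p under 0.05; it turned no member. Over the left-out libraries 213 to 1017 genes had an unadjusted p under 0.05, the most without WT replicate 3, with 0 passing in each. With the filter of 1 TPM in 3 libraries Dcstamp and Ocstamp were not tested. These 2 genes rest on 9 to 38 reads per library. The cause of these shifts was not tested.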
